A study of Rattus norvegicus with 16 samples.

Results

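The 10 genes described here act in insulin and insulin-like growth factor (IGF) signalling and were followed in glomeruli, the filtering tufts of the kidney, of rats with toxin-induced nephrosis. They were chosen by gene name from the deposited table, and all 10 of 10 were present among its 13222 genes. They are 3 receptors (Insr, Igf1r and Igf2r), 2 docking proteins (Irs1 and Irs2) and 5 secreted binding proteins (Igfbp2, Igfbp3, Igfbp4, Igfbp5 and Igfbp7).

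The study sequenced poly(A) RNA from sieved glomeruli of 16 male Wistar rats of about 175 g, with 4 rats in each of 4 groups. Control rats are labelled healthy, and the labels do not say whether they received a sham injection or vehicle. PAN rats had an intravenous injection of puromycin aminonucleoside (PAN), a podocyte toxin used to model nephrotic syndrome; podocytes are the epithelial cells that hold the filtration slits. The other 2 groups had the same injection and daily oral pioglitazone, a thiazolidinedione agonist of the nuclear receptor PPARγ, or daily oral GQ-16, a partial PPARγ agonist. All glomeruli were collected on day 11. No dose is given in the labels, and a sieved preparation holds podocytes, endothelial cells, mesangial cells and some tubule fragments together. In such bulk samples, fewer cells of a type and less RNA per cell cannot be told apart. The rats are taken as separate animals on the word of the labels alone, and p-values measure the spread between these libraries.

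Insulin and the IGFs bind receptor tyrosine kinases at the cell surface. Activated receptors phosphorylate the insulin receptor substrates, which dock phosphatidylinositol 3-kinase and start the AKT and mTOR cascade. IGF binding proteins hold the ligands in blood and tissue and set how much of them reaches the receptors, and proteases release the ligands again. Podocytes respond to insulin, and mesangial and endothelial cells respond to the IGFs.

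Library totals were 13351137 to 21977663 reads. Levels are in CPM, the reads of a gene scaled to a common library total, and differences are on log2(CPM + 1). Mitochondrial genes took 13.7% to 39.0% of reads in control rats and 5.83% to 10.6% in PAN rats, and 3 libraries were above 30% (control rats 2 and 3 and GQ-16 rat 2). In PAN against control the median log2 change of all genes was 0.28, and it was -0.003 after median-ratio scaling, which sets libraries to a common median gene. A value under that scaling is therefore given beside most differences from control. Library numbers of 25 or higher belong to PAN rats 1, 2 and 3, pioglitazone rat 4, GQ-16 rat 4 and to no control rat, so that library number is largely confounded with the PAN group. Both treated groups have 3 of 4 rats at numbers of 15 or lower, as all controls are. The labels do not say what the number stands for.

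**Figure D1:**
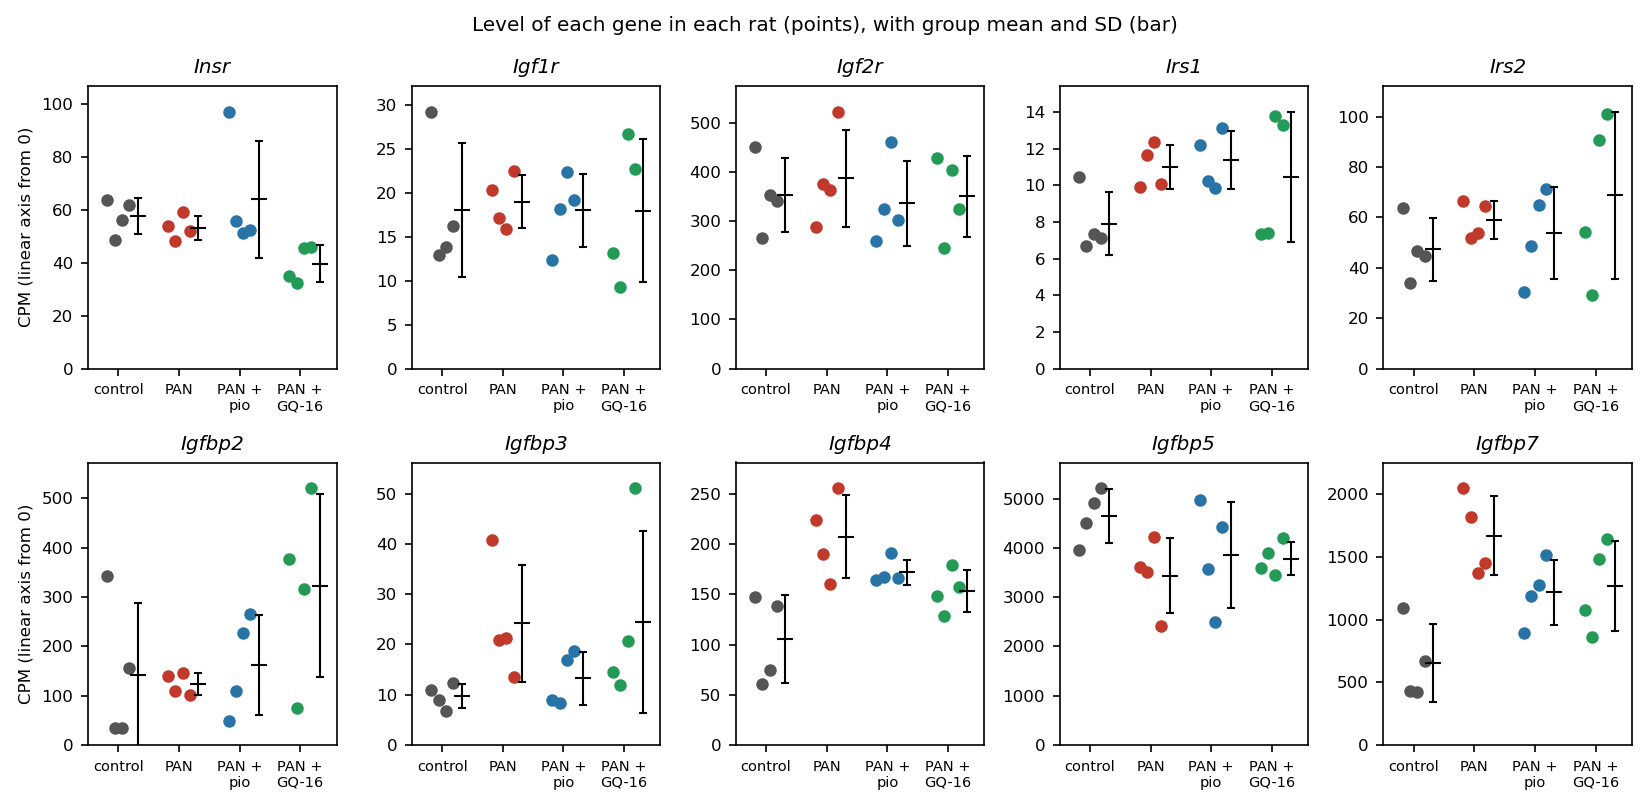
Level of each of the 10 genes in CPM (vertical axis, linear and starting at 0) in 4 groups of 4 rats. Each point is a rat, and the bar beside it is the group mean with its SD, which for Igfbp2 in control reaches below 0 and ends at the axis. For Igfbp7, Igfbp4 and Igfbp3 the lowest PAN rat lay above the highest control rat, and Insr was lower in every GQ-16 rat than in every other rat.

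PAN against control asks what the injury did. Of the 10 genes, 3 were higher at a limma adjusted p under 0.05 (Benjamini-Hochberg over all 13222 genes) and 0 were lower, and all 3 were binding proteins. Among all genes 21.7% were called higher and 0.522% lower. After median-ratio scaling 2 of the 10 were higher and 0 lower, against 7.12% higher and 1.51% lower among all genes. The median log2 change of the 10 genes was 0.39, beside 0.28 for all genes, and after median-ratio scaling it was 0.09, beside -0.003. A count of 3 of 10 is not far from the background on the deposited scale, and nothing particular to the 10 genes is read from it.

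The binding proteins that rose are described first, with the DNA before their start sites, since these are the 3 members called in PAN against control on the deposited scale. Each stretch is the 250 bases before the RefSeq start of the gene in rat assembly GRCr8, read 5′ to 3′ on the gene's strand. It is a window on chr14:31091486-31091735 (+ strand) for Igfbp7, on chr10:84491221-84491470 (+ strand) for Igfbp4 and on chr14:86277945-86278194 (- strand) for Igfbp3. Capitals mark GGGCGG on either strand (CCGCCC when it lies on the other strand), the core of a GC box, and TATAAA, the TATA box.
Igfbp7: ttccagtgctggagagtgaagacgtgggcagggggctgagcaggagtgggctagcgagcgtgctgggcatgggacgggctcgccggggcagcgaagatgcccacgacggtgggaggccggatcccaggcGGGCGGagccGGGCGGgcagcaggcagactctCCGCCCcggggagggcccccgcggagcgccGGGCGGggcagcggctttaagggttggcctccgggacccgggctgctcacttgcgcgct
Igfbp4: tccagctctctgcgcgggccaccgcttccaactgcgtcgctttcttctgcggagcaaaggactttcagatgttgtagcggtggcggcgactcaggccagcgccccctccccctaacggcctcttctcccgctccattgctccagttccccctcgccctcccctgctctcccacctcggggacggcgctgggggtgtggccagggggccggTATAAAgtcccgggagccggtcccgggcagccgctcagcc
Igfbp3: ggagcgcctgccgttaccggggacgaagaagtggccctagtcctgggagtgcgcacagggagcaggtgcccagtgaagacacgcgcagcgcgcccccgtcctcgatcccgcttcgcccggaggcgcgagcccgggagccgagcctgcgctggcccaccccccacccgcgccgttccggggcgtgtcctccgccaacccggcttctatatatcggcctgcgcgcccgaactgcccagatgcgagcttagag
These letters were searched on both strands, together with TGTTTAC, the core of forkhead sites, CCAAT, and the direct repeat element that PPAR and RXR pairs bind. No motif overlapped another in these windows. The Igfbp7 window holds 4 GGGCGG, the Igfbp4 window holds 1 TATAAA from 40 to 35 bases before the start, and the Igfbp3 window holds none of the 5 motifs.

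Windows were found for 9 of the 10 genes, all but Irs2. GGGCGG was in 5 of the 9, beside 30.47% of 33469 rat windows of the same length, and the other 4 genes with it were Igf1r, Igf2r, Irs1 and Igfbp2. TATAAA was in 1 of 9 (12.93% of all windows) and TGTTTAC in 1 of 9, that of Insr (3.215%). CCAAT (34.02%) and the direct repeat element (0.05079%) were in 0 of 9. GC content of the 9 windows ran from 51.6% for Igfbp5 to 79.6% for Igf1r, with a median of 51.2% over all windows. So the windows of the 3 genes that rose differ in these letters, and a match says only that the letters are there.

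Igfbp7 (ENSRNOG00000002050) encodes a secreted protein of vessel walls and matrix that binds IGFs weakly. Its level in control rats 1 to 4 was 1092, 429, 423 and 672 CPM, and in PAN rats 1 to 4 it was 2049, 1816, 1371 and 1449 CPM. The lowest PAN rat was above the highest control rat, as it was for 22.4% of all genes. The group means were 654 ± 314 and 1671 ± 318 CPM (SD, n = 4), a log2 difference of 1.45 (SE 0.29, limma adjusted p 0.00476). After median-ratio scaling the log2 change was 1.14 (limma adjusted p 0.00546) and the groups stayed apart, as in 10.6% of all genes higher.

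Igfbp4 (ENSRNOG00000010635) encodes a binding protein that holds IGFs away from their receptor until a protease cuts it. Control rats 1 to 4 had 147, 60.8, 75.1 and 139 CPM, and PAN rats 1 to 4 had 224, 190, 160 and 256 CPM, again without overlap. The means were 106 ± 43.9 and 208 ± 41.5 CPM (SD, n = 4), and the log2 change was 1.05 (SE 0.24, limma adjusted p 0.0085). Median-ratio scaling gave 0.75 (limma adjusted p 0.0172), with no overlap either.

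Igfbp3 (ENSRNOG00000061910), which encodes the main IGF carrier of serum, was low in control rats, at 11.0, 8.94, 6.86 and 12.2 CPM. PAN rats 1 to 4 had 40.9, 20.9, 21.3 and 13.6 CPM, so that PAN rat 1 stood highest and PAN rat 4 lay just above the highest control rat. The log2 change was 1.15 (SE 0.40, limma adjusted p 0.0488). After median-ratio scaling it was 0.87 (limma adjusted p 0.147) and did not pass. The call was also lost when any of 5 of the 8 rats (control 2 or 3, PAN 1, 2 or 3) was left out, with adjusted p from 0.0798 to 0.158 in those fits.

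**Figure D2:**
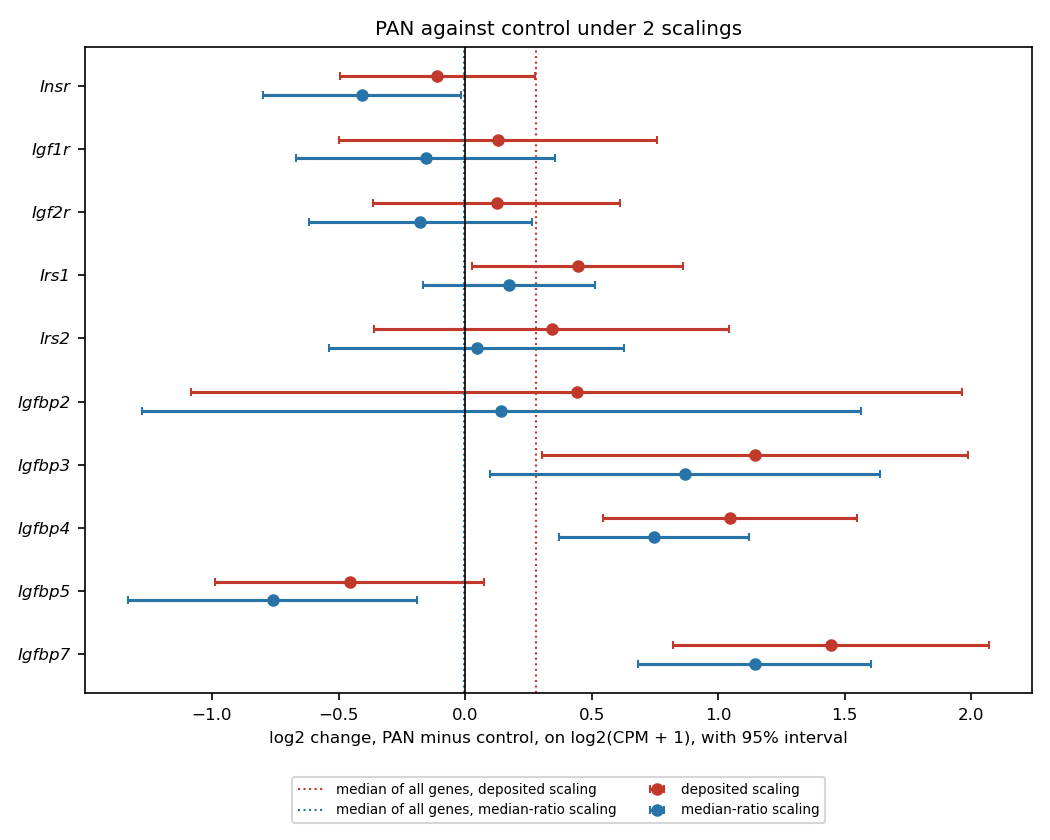
Log2 change of each of the 10 genes in PAN against control (horizontal axis, on log2(CPM + 1)), with its 95% interval from limma, under the deposited scaling (red) and median-ratio scaling (blue). Dotted lines are the median of all genes, 0.28 and -0.003. The intervals are not adjusted for the number of genes. Those of Igfbp3, Igfbp4 and Igfbp7 lie above 0 under both scalings, but Igfbp3 did not pass after median-ratio scaling (limma adjusted p 0.147). Those of Insr and Igfbp5 lie below 0 under median-ratio scaling, and neither gene passed after adjustment.

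Igfbp5 (ENSRNOG00000017206), a binding protein that attaches to extracellular matrix, did not follow them. It was at 3960, 4513, 4920 and 5213 CPM in control rats and at 3618, 3512, 4226 and 2406 CPM in PAN rats, and the groups overlapped. The log2 change was -0.46 (SE 0.25, limma adjusted p 0.171), and -0.76 after median-ratio scaling (limma adjusted p 0.0912), so that the call was not made on either scale. Igfbp2 (ENSRNOG00000016957), a binding protein that also circulates, varied most among control rats, at 343, 34.9, 34.9 and 155 CPM. PAN rats had 140, 109, 147 and 101 CPM, all inside the control range. The mean CPM was lower in PAN (124 ± 22.6) than in control (142 ± 145; SD, n = 4), whereas the log2 change was positive at 0.44 (95% interval -1.08 to 1.96, limma adjusted p 0.643) and 0.14 after median-ratio scaling. It turned to -0.90 without the libraries above 30% mitochondrial reads (limma adjusted p 0.518; -1.02 after median-ratio scaling).

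Reads of one binding protein per 100 reads of Igfbp5 in the same library do not depend on library scaling, and this measure was chosen after the values were seen. For Igfbp7 it was 27.6, 9.51, 8.61 and 12.9 in control rats 1 to 4 and 56.6, 51.7, 32.4 and 60.2 in PAN rats 1 to 4. For Igfbp4 it was 3.72, 1.35, 1.53 and 2.66 in control and 6.19, 5.41, 3.79 and 10.6 in PAN, where the lowest PAN rat was only slightly above the highest control rat. For Igfbp3 it was 0.139 to 0.278 in control and 0.504 to 1.13 in PAN. The ratio to Igfbp5 was higher in all PAN rats than in all control rats for 42.2% of the other genes, and Igfbp5 itself had lower means in PAN, so that nothing particular to these 3 genes is read from it. For Igfbp2 the control rats (0.710 to 8.66) enclosed the PAN rats (3.10 to 4.21).

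**Figure D3:**
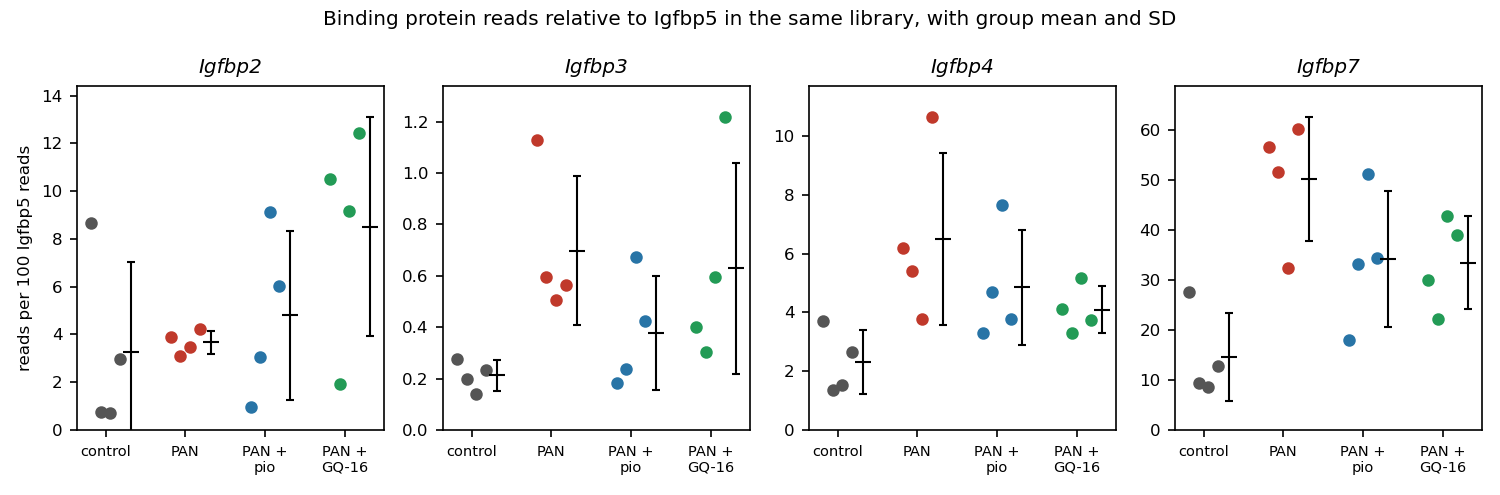
Reads of Igfbp2, Igfbp3, Igfbp4 and Igfbp7 per 100 Igfbp5 reads of the same library (vertical axes, linear and starting at 0) in 4 groups of 4 rats. Points are rats, bars are group means with SD (the control bar of Igfbp2 ends at the axis), and Igfbp7 ran from 8.61 to 27.6 in control, 32.4 to 60.2 in PAN, 17.9 to 51.2 with pioglitazone and 22.2 to 42.8 with GQ-16.

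Other measures moved with these 3 genes. Mesangial and smooth muscle markers (7 of 8 in the table, Cnn1 not) summed to 256 to 652 CPM in control and 994 to 1763 CPM in PAN. Fibroblast markers (3 of 5 in the table, Dcn and Lum not) summed to 19.1 to 74.6 CPM in control and 107 to 2556 CPM in PAN. The PAN rats with the highest and lowest sum, rats 1 and 4, were also those with the highest and lowest Igfbp3. Podocyte, mesangial and smooth muscle, and leukocyte sums were highest and lowest in the same PAN rats. Among control rats and among pioglitazone rats neither the highest nor the lowest rat for the fibroblast sum matched that for Igfbp3. Among GQ-16 rats only the lowest, rat 2, matched. Of the fibroblast markers only Col1a1 separated PAN from control (7.54 to 56.1 and 87.3 to 1763 CPM), while Col3a1 (2.44 to 3.53 and 3.46 to 767 CPM) and Pdgfra (8.99 to 14.98 and 8.32 to 26.8 CPM) overlapped. Of 6 striated muscle markers only Des, which mesangial cells and podocytes also express, is in the table, with 37.5 to 148 CPM in control and 555 to 942 CPM in PAN. The mesangial and smooth muscle sum, the fibroblast sum and Des each had an exact permutation p of 0.0286 (two-sided) in PAN against control. That is the smallest that 4 rats against 4 allow, and it was 0.129 after adjustment over 54 marker comparisons. Their part in the binding protein result was not tested.

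The remaining marker sums overlapped between PAN and control. Podocyte markers (10 of 10 in the table) summed to 2916 to 10143 CPM in control and 8115 to 11760 CPM in PAN, and endothelial markers (7 of 8, Pecam1 not in the table) to 5089 to 7083 and 4877 to 7479 CPM. Leukocyte markers (9 of 9) ran from 381 to 668 CPM in control and from 644 to 1415 CPM in PAN, parietal epithelial markers (4 of 6) from 95.3 to 141 and from 85.0 to 127 CPM. Proximal tubule markers (7 of 7) ran from 3549 to 7913 and from 2728 to 9174 CPM, distal nephron markers (7 of 8) from 916 to 1602 and from 459 to 1035 CPM. None of 4 adipocyte markers is in the table.

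The libraries above 30% mitochondrial reads include 2 of the 4 control rats. Without those libraries, an alternative chosen after seeing the data, limma called 0 of the 10 genes in PAN against control, beside 56 genes in all (0.424%), with 2 of the 10 at an unadjusted p under 0.05, beside 13.1% of all genes. Igfbp7 then had a log2 change of 0.94 (limma adjusted p 0.146), Igfbp4 of 0.51 (limma adjusted p 0.179) and Igfbp3 of 0.89 (limma adjusted p 0.472), with 2 control rats left, and 0.83, 0.40 and 0.78 after median-ratio scaling. A term for library numbers of 25 or higher gives PAN rat 4, the only PAN rat with a lower number, more weight than the other PAN rats. That rat had the highest Igfbp4 (256 CPM) and the lowest Igfbp3 (13.6 CPM) of the PAN rats. With this term Igfbp4 alone of the 10 was called, beside 2.97% of all genes, at 1.16 (limma adjusted p 0.0441). Igfbp7 had 1.13 in that fit (limma adjusted p 0.099) and Igfbp3 0.32 (limma adjusted p 0.616). After median-ratio scaling the 3 values with this term were 0.95, 0.92 and 0.13, and again Igfbp4 alone was called.

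None of the receptors and docking proteins was called in PAN against control. Insr (ENSRNOG00000029986), the insulin receptor, had 63.8, 48.7, 56.3 and 61.9 CPM in control rats and 53.7, 48.1, 59.0 and 52.2 CPM in PAN rats. The log2 change was -0.11 (95% interval -0.50 to 0.28, limma adjusted p 0.65). After median-ratio scaling it was -0.41 (limma adjusted p 0.174), and there every PAN rat was below every control rat, as were 5.23% of all genes.

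Igf1r (ENSRNOG00000014187), the receptor through which both IGFs signal, had 29.3, 12.95, 13.8 and 16.3 CPM in control rats and 20.4, 17.1, 15.9 and 22.6 CPM in PAN rats. Control rat 1 was highest of all 16 rats, and the log2 change of 0.13 (95% interval -0.50 to 0.76, limma adjusted p 0.746) became -0.16 after median-ratio scaling. Igf2r (ENSRNOG00000014997), the mannose 6-phosphate receptor that takes up and degrades IGF2, had 452, 266, 353 and 342 CPM in control and 288, 376, 363 and 523 CPM in PAN. The difference was 0.12 (95% interval -0.36 to 0.61, limma adjusted p 0.682), and -0.18 after median-ratio scaling. The direction of both receptors thus turned with the scaling.

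Irs1 (ENSRNOG00000014597) and Irs2 (ENSRNOG00000023509) carry the signal from the receptors to phosphatidylinositol 3-kinase. Irs1 had 10.5, 6.69, 7.37 and 7.11 CPM in control rats and 9.93, 11.7, 12.4 and 10.1 CPM in PAN rats, and control rat 1 lay among the PAN rats. Its log2 change of 0.44 (SE 0.20) did not pass (limma adjusted p 0.101), and was 0.17 after median-ratio scaling. Irs2 had 63.8, 33.8, 46.8 and 44.8 CPM in control and 66.5, 51.7, 53.7 and 64.5 CPM in PAN, with a log2 change of 0.34 (95% interval -0.36 to 1.04, limma adjusted p 0.428) and of 0.05 after median-ratio scaling.

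The 2 drugs were each compared with PAN and with each other. No member was called in any of these 3 comparisons, and limma called 0 of all genes (0%) for pioglitazone against PAN, 2 (0.0151%) for GQ-16 against PAN and 0 (0%) for GQ-16 against pioglitazone. At an unadjusted p under 0.05 there were 0, 1 and 1 of the 10 genes, beside 3.74%, 8.27% and 5.94% of all genes. Voom with median-ratio scaling also called 0 members in each.

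Insr was the member at an unadjusted p under 0.05 in both GQ-16 comparisons. GQ-16 rats 1 to 4 had 35.1, 32.5, 45.5 and 45.8 CPM, below each PAN rat (48.1 to 59.0 CPM) and each pioglitazone rat (97.1, 55.8, 51.1 and 52.2 CPM). Lower in every rat were also 3.47% of all genes for GQ-16 against PAN and 1.94% for GQ-16 against pioglitazone. The log2 change was -0.43 against PAN (95% interval -0.81 to -0.04, unadjusted limma p 0.0325, adjusted 0.554) and -0.64 against pioglitazone (95% interval -1.03 to -0.25, unadjusted limma p 0.00294, adjusted 0.724), neither of which passed. Median-ratio scaling gave -0.30 (limma adjusted p 0.822) and -0.60 (limma adjusted p 0.681), and the rats of the groups stayed apart, as in 1.85% and 1.47% of all genes lower. After that scaling Insr was no longer at an unadjusted limma p under 0.05 against PAN. Without pioglitazone rat 1 the difference between the drugs was -0.42. The mesangial and smooth muscle sum was also lower in every GQ-16 rat (522 to 957 CPM) than in every PAN rat (994 to 1763 CPM), and overlapped with pioglitazone (886 to 1102 CPM). Des, the gene of the filament protein desmin, was lower in every GQ-16 rat (151 to 401 CPM) and in every pioglitazone rat (190 to 519 CPM) than in every PAN rat (555 to 942 CPM). Endothelial markers summed to 9602, 7348, 5418 and 7170 CPM in pioglitazone rats 1 to 4, in the same order of rats as Insr, and to 4960, 6458, 5543 and 5515 CPM in GQ-16 rats 1 to 4, the group with the lowest mean of both. Among the GQ-16 rats the orders differed, rat 2 having the highest sum and the lowest Insr. The part of these markers in the Insr values was not tested.

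The other receptors and docking proteins overlapped between the injured groups. Igf1r had 12.4, 18.2, 22.4 and 19.2 CPM with pioglitazone and 13.1, 9.25, 26.8 and 22.8 CPM with GQ-16, and Igf2r had 260 to 461 and 246 to 429 CPM. Irs1 ran from 9.86 to 13.2 CPM with pioglitazone and from 7.37 to 13.8 CPM with GQ-16. Irs2 was most spread with GQ-16, at 54.2, 29.2, 90.8 and 101 CPM, beside 30.2, 48.7, 64.8 and 71.1 CPM with pioglitazone. GQ-16 minus pioglitazone was -0.09 for Igf1r (95% interval -0.71 to 0.54), 0.06 for Igf2r (-0.43 to 0.55), -0.16 for Irs1 (-0.57 to 0.26) and 0.27 for Irs2 (-0.43 to 0.97) on the log2 scale, so that differences as large as the ends of these intervals could not be told from none.

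The binding proteins that rose in PAN had intermediate means in both drug groups, apart from Igfbp3 with GQ-16. Igfbp7 was at 892, 1185, 1280 and 1519 CPM with pioglitazone and 1080, 863, 1480 and 1641 CPM with GQ-16. Against PAN its log2 change was -0.46 (95% interval -1.09 to 0.16) with pioglitazone and -0.43 (95% interval -1.05 to 0.20) with GQ-16, and the 2 drugs differed by 0.03 (95% interval -0.59 to 0.66). Both drug groups overlapped the PAN rats.

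Igfbp4 was at 164, 167, 191 and 166 CPM with pioglitazone, the narrowest group of this gene, and at 148, 129, 179 and 157 CPM with GQ-16. The log2 changes against PAN were -0.25 (95% interval -0.75 to 0.25) and -0.42 (95% interval -0.92 to 0.08). Igfbp3 was at 9.03, 8.43, 16.8 and 18.7 CPM with pioglitazone and at 14.5, 11.9, 20.6 and 51.1 CPM with GQ-16, where rat 4 stood above all 16 rats. Its log2 changes against PAN were -0.79 (95% interval -1.63 to 0.05) and -0.10 (95% interval -0.94 to 0.74), and the latter turned to 0.02 after median-ratio scaling.

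Igfbp2 had the largest ratio of highest to lowest rat among the 10 genes, 14.9, from 34.9 to 521 CPM. It was at 48.4, 109, 228 and 266 CPM with pioglitazone and at 378, 75.5, 317 and 521 CPM with GQ-16, where 3 of 4 rats were above every PAN rat. The log2 change of GQ-16 was 1.09 against PAN (95% interval -0.44 to 2.61, limma adjusted p 0.729) and 0.96 against pioglitazone (95% interval -0.56 to 2.49, limma adjusted p 0.999). With a rat left out these ran from 0.76 to 1.68 and from 0.48 to 1.56. Podocyte markers summed to 5137, 7467, 10110 and 13017 CPM in pioglitazone rats 1 to 4 and to 8478, 4700, 12808 and 15763 CPM in GQ-16 rats 1 to 4. The lowest and highest Igfbp2 fell in the rats with the lowest and highest podocyte sum in both drug groups and in control. In PAN both were lowest in rat 4, but Igfbp2 was highest in rat 3 and the podocyte sum in rat 1. In both drug groups the rats with the lowest and highest Igfbp2 also had the highest and lowest mitochondrial share, and the lowest and highest Des. The part of podocyte RNA and of these other measures in Igfbp2 was not tested. Igfbp5 overlapped between all 3 injured groups, at 2497 to 4968 CPM with pioglitazone and 3457 to 4195 CPM with GQ-16.

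**Figure D4:**
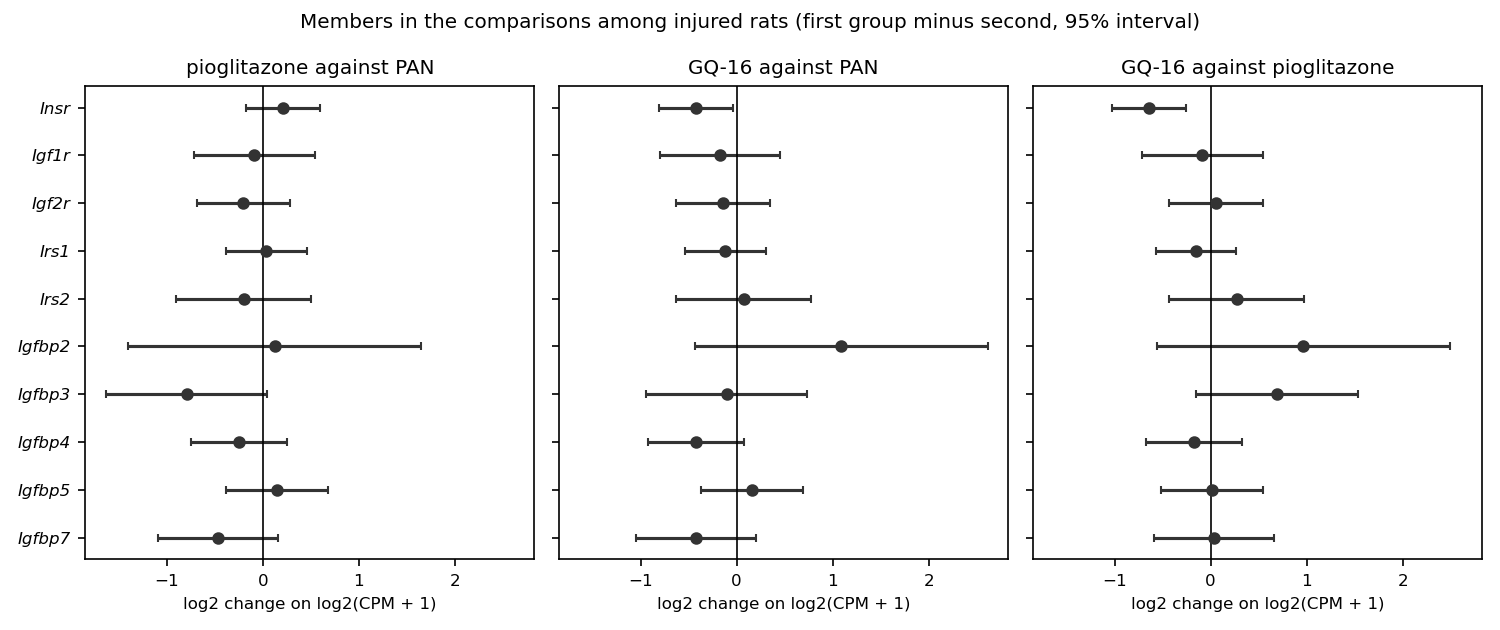
Log2 change with 95% interval from limma (horizontal axis, on log2(CPM + 1)) of each of the 10 genes in the comparisons among injured rats, with 4 rats in each group. On the deposited scale shown, the intervals of Insr for GQ-16 against PAN (-0.81 to -0.04) and against pioglitazone (-1.03 to -0.25) lie below 0, and neither passed after adjustment over all genes. After median-ratio scaling the interval of Insr against PAN includes 0.

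Set against control, the treated groups share the control rats with the PAN comparison, so that these values are not separate evidence of the same rise. Limma called 0 of the 10 genes with pioglitazone, where 3 were at an unadjusted p under 0.05 (28.5% of all genes) and 4.98% of all genes were called. With GQ-16 it called 0 of the 10, 5 were at an unadjusted p under 0.05 (23.9% of all genes), and 0.151% of all genes were called. Without control rat 1 the counts of members were 2 and 3, with 1660 and 1572 of all 13222 genes called in the same fits. Without control rat 4 the count for pioglitazone was 1, with 955 of all genes.

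Igfbp7 was higher than control by 0.98 log2 units with pioglitazone (limma adjusted p 0.0622; 0.77 after median-ratio scaling, adjusted p 0.0696) and by 1.02 with GQ-16 (limma adjusted p 0.101; 0.84 after median-ratio scaling, adjusted p 0.0622). Igfbp4 differed by 0.80 with pioglitazone (limma adjusted p 0.0615; 0.58 after median-ratio scaling), where no rat overlapped control, as in 13.1% of all genes higher (7.15% after that scaling), and by 0.63 with GQ-16 (limma adjusted p 0.146; 0.45 after median-ratio scaling). Among rats with library numbers of 15 or lower, which leaves 3 treated rats each, the log2 changes of Igfbp7 were 0.87 and 0.88 and those of Igfbp4 were 0.81 and 0.61. Without the libraries above 30% mitochondrial reads they were smaller, 0.48 with pioglitazone and 0.69 with GQ-16 for Igfbp7 and 0.26 and 0.17 for Igfbp4 (0.45, 0.63, 0.23 and 0.11 after median-ratio scaling). None of these passed the test.

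Igfbp3 differed from control by 0.35 log2 units under pioglitazone (limma adjusted p 0.514) and by 1.04 under GQ-16 (limma adjusted p 0.148), or 0.16 and 0.88 after median-ratio scaling. Without GQ-16 rat 4 the Igfbp3 difference under GQ-16 was 0.62 on the deposited scale. Igfbp2 differed by 0.57 (limma adjusted p 0.567) and 1.53 (limma adjusted p 0.208), or 0.35 and 1.36 after median-ratio scaling. Without the libraries above 30% mitochondrial reads Igfbp2 turned to -0.78 with pioglitazone (-0.81 after median-ratio scaling) and was 0.78 with GQ-16 (0.72), and neither passed the test. Insr in GQ-16 rats was also below every control rat, with a log2 change of -0.54 (limma adjusted p 0.124) and -0.71 after median-ratio scaling (limma adjusted p 0.0622). Every rat lower than control was the case for 1.09% of all genes on the deposited scale and 5.49% after median-ratio scaling. Pioglitazone left Insr within the spread, at 0.10 against control (95% interval -0.28 to 0.49) and -0.11 after median-ratio scaling.

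The rest of the pathway was read from a list of 61 genes ordered by role, of which 50 are in the table. Igf2, Ins1, Ins2, Grb14, Irs4, Igfbp6, Igfbpl1, Pappa, Trib3, Igf2bp1 and Igf2bp3 are not among its genes. In PAN against control 13 of 50 were higher and 0 lower at a limma adjusted p under 0.05, and 5 higher and 2 lower after median-ratio scaling, beside 21.7% and 7.12% of all genes higher and 0.522% and 1.51% lower. The median log2 change of the list was 0.26, beside 0.28 for all genes. The ligand Igf1, at 1.63 to 4.55 CPM in control and 2.47 to 8.34 CPM in PAN, was not called (log2 change 0.67, limma adjusted p 0.101; 0.45 after median-ratio scaling).

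Inhibitors of the signal held 3 of the 13 genes that rose, of 8 in the table. Socs1, which blocks cytokine and insulin receptor signalling, was at 2.23 to 5.22 CPM in control and 13.4 to 20.9 CPM in PAN, with a log2 difference of 2.01 (SE 0.35, limma adjusted p 0.00178; 1.77 after median-ratio scaling). Inppl1, the lipid phosphatase SHIP2, was at 79.2 to 142 CPM in control and 181 to 231 CPM in PAN, a log2 change of 1.05 (limma adjusted p 0.00988; 0.75 after median-ratio scaling). Ptpn1, the phosphatase that dephosphorylates the insulin receptor, rose by 0.66 (limma adjusted p 0.0133; 0.37 after median-ratio scaling). These 3 were called under both scalings, and the rats of PAN and control did not overlap for any of them, as for 22.4% of all genes higher (10.6% after median-ratio scaling). With a term for library numbers of 25 or higher, Socs1 alone of the 50 was called, beside 2.97% of all genes, at 1.497 (limma adjusted p 0.0398), with 0.67 for Inppl1 (limma adjusted p 0.207) and 0.43 for Ptpn1 (limma adjusted p 0.239). That term gives PAN rat 4 more weight than the other PAN rats.

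The counts by role are small and stand beside the 21.7% of all genes called higher, so that nothing particular to a role is read from them. Among receptors and their partners 3 of 8 rose (Shc1, Sh2b1 and Irs3), and the adaptor Shc1 was called under both scalings, at 0.69 and 0.39. The kinase cascade had 4 of 17 called, Akt1 (0.48, and 0.18 after median-ratio scaling), Tsc2 (0.53 and 0.23), Pik3cd (0.61 and 0.31) and Pik3r2 (0.61 and 0.31), and 0 of 17 after that scaling. Of other binding proteins and their proteases or protease inhibitors 2 of 7 rose, Adamts1 (0.73, and 0.43 after median-ratio scaling) without overlap and Stc2 (0.70 and 0.50) with it, and neither was called after median-ratio scaling. Of 9 transcription factors and targets Eif4ebp1, which restrains translation when mTOR is off, rose by 0.76 (0.50 after median-ratio scaling, called on both). Grb10 and Phlpp1 were the 2 genes called lower after median-ratio scaling, at -0.35 and -0.53, with -0.05 and -0.23 on the deposited scale.

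Without the libraries above 30% mitochondrial reads, 0 of the 50 genes were called in PAN against control by limma (0.424% of all genes), with 9 at an unadjusted p under 0.05 (13.1% of all genes). Among the injured groups limma called 0 of the 50 for pioglitazone against PAN, GQ-16 against PAN and GQ-16 against pioglitazone, with 4, 7 and 9 at an unadjusted p under 0.05, beside 3.74%, 8.27% and 5.94% of all genes. With pioglitazone against control 3 of the 50 were called higher (Socs1, Shc1 and Adamts1) and 1 lower (Insrr), beside 4.98% of all genes called. After median-ratio scaling 1 was called higher and 1 lower, beside 2.22% and 0.62% of all genes. With GQ-16 against control 1 was called, Socs1, beside 0.151% of all genes. Socs1 was higher than control with pioglitazone (1.69, limma adjusted p 0.0176) and with GQ-16 (2.09, limma adjusted p 0.0223), or 1.53 and 1.97 after median-ratio scaling. Without the libraries above 30% mitochondrial reads all of these calls against control ended, Insrr included, and limma called 0 of all genes (0%) for either drug. At an unadjusted p under 0.05 there were then 6 of the 50 with pioglitazone (8.48% of all genes) and 3 with GQ-16 (6.73% of all genes). Socs1 had 1.27 with pioglitazone (limma adjusted p 0.411) and 1.91 with GQ-16 (limma adjusted p 0.511) in those fits, which keep 2 control rats. With pioglitazone Insrr then had -0.79 (limma adjusted p 0.473), Shc1 0.37 (limma adjusted p 0.575) and Adamts1 0.67 (limma adjusted p 0.475). Insrr, the insulin receptor related receptor, was lower than control with pioglitazone, at 5.52 to 10.2 CPM beside 10.3 to 15.1 CPM, a log2 change of -0.84 (limma adjusted p 0.0333; -1.05 after median-ratio scaling). The corresponding change with GQ-16 was -0.58 (limma adjusted p 0.138; -0.74 after median-ratio scaling), and the difference between the drugs was not called. Distal nephron markers summed to 580 to 675 CPM in pioglitazone rats and 916 to 1602 CPM in control rats, without overlap (exact permutation p 0.0286, 0.129 adjusted over 54), and their part in the Insrr value was not tested.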

How the data were processed

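Poly(A) RNA of glomeruli was measured in 16 libraries, 4 rats in each of 4 groups. The deposited values, as the authors left them, are log2 CPM, and the submitters' processing notes name HISAT2, featureCounts, Subread, limma and the build Rnor_6.0, with no versions. Each deposited value carries an offset of 0.5 read on the count and 1 on the library total, and removing these offsets gave whole reads (within 0.1) for 100% of values. All 13222 listed genes reached 2 CPM in at least 8 libraries, and 0 columns were unmapped.

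The log2(CPM + 1) values of all 16 libraries were fitted with limma 3.58.1 (R 4.3.3) as 4 group means, with a variance trend and Benjamini-Hochberg adjustment over all genes, and genes with an adjusted p under 0.05 are called changed. The scale understates changes of low genes. The filter of a mean of 1 CPM removed 0 genes. The fit was tested on simulated data. Totals of 13351137 to 21977663 reads put 3 reads at 0.137 to 0.225 CPM, and the spread between rats was far above counting error: no pair of libraries of a group agreed within it (chi-square per gene of 13.3 or more). Marker sums were compared by exact two-sided permutation tests over 70 assignments.

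The members and lists were chosen with earlier results of these data known. All 10 members are described. Of the pathway list, genes called in PAN against control without overlap between rats are named, and those called between injured groups; Igf1, Irs3, Sh2b1, Stc2, Grb10, Phlpp1 and Insrr lie outside that rule and were chosen after their values were seen. The same holds for the ratios to Igfbp5. Promoter windows are RefSeq's for GRCr8, not the build of the counts, and protein sequences were not used here. Alternatives were median-ratio scaling, quantile normalization, a pseudocount of 0.1, a mean of at least 10 CPM, voom, a term that marks library numbers from 25 up, library numbers of 15 or lower, fits to only the groups compared and leaving out each rat.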

Additional observations from a re-analysis of the deposited data

Results flagged for a closer look

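Of 40 sets of 4 rats (10 genes in 4 groups), 2 had a rat so far from its nearest neighbour that the gap, divided by the whole range of log2 CPM in the group, was above Dixon's critical value at 95%, and 2 are expected by chance, about 1 in 20. Insr in pioglitazone rat 1 was 97.1 CPM, beside 51.1 to 55.8 CPM in the other 3 rats, with a gap of 0.862 of the range. The same rat had the highest endothelial marker sum of all 16 (9602 CPM). Igfbp4 in pioglitazone rat 3 was 191 CPM, beside 164 to 167 CPM in the other 3, with a gap of 0.879 of the range. Without pioglitazone rat 1 the Insr difference between GQ-16 and pioglitazone was -0.42 (limma adjusted p 1), beside -0.64 with it.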

How the results depend on the processing

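The following alternatives were chosen after seeing the data: leaving out the 3 libraries above 30% mitochondrial reads, with and without median-ratio scaling, and the library number covariate with median-ratio scaling. No paired analysis was run, because the labels give each group its own rats and no pairing between groups. Of 60 log2 changes of members (10 genes in 6 comparisons), 33 kept their direction in every alternative run, 18 turned under an alternative that kept all rats or left out a set of libraries, and 23 turned with a rat left out; the cause was not tested. The calls of Igfbp4 and Igfbp7 in PAN against control held in all 8 fits with a rat left out (log2 changes of 0.82 to 1.24 and 1.28 to 1.73), and that of Igfbp3 in 3 of 8. Counts with all rats were 2943 genes in PAN against control, 2 genes in GQ-16 against PAN, 659 genes in pioglitazone against control and 20 genes in GQ-16 against control, and in PAN against control 3 members and 13 pathway genes. Median-ratio scaling gave 7 pathway genes and 1141 genes in all and turned Igf1r to -0.16 and Igf2r to -0.18 in PAN against control and gave 0 genes in all and turned Igfbp3 to 0.015 in GQ-16 against PAN. This setting likewise gave 376 genes in all and turned Insr to -0.11, Igf1r to -0.17 and Irs2 to -0.071 in pioglitazone against control and gave 98 genes in all in GQ-16 against control. Quantile normalization gave 8 pathway genes and 1136 genes in all and turned Igf1r to -0.21 and Igf2r to -0.20 in PAN against control and turned Igf1r to 0.041 in pioglitazone against PAN. The same fit gave 0 genes in all and turned Irs1 to 0.037 and Igfbp3 to 0.012 in GQ-16 against PAN and gave 384 genes in all and turned Insr to -0.11, Igf1r to -0.17 and Irs2 to -0.061 in pioglitazone against control. That setting further gave 67 genes in all in GQ-16 against control. Voom with median-ratio scaling gave 6 pathway genes and 1047 genes in all and turned Igf1r to -0.18 and Igf2r to -0.17 in PAN against control and gave 0 genes in all and turned Irs1 to 0.00092 and Igfbp3 to 0.023 in GQ-16 against PAN. That setting further gave 250 genes in all and turned Insr to -0.12, Igf1r to -0.18 and Irs2 to -0.071 in pioglitazone against control and gave 35 genes in all in GQ-16 against control. A mean of at least 10 CPM gave 1 gene in all in GQ-16 against PAN and gave 393 genes in all in pioglitazone against control. A fit to only the groups compared gave 7 pathway genes and 1580 genes in all in PAN against control and gave 0 genes in all in GQ-16 against PAN. Library numbers of 15 or lower gave 285 genes in all and turned Irs2 to -0.012 in pioglitazone against control and gave 144 genes in all and turned Igf2r to 0.0092 in GQ-16 against control. A library number covariate gave 1 member, 1 pathway gene and 393 genes in all and turned Irs2 to -0.0021 and Igfbp2 to -0.31 in PAN against control and turned Irs2 to 0.032 in pioglitazone against PAN. The same fit gave 0 genes in all and turned Irs1 to 0.037 and Igfbp3 to 0.45 in GQ-16 against PAN and gave 33 genes in all and turned Igf2r to 0.057 in GQ-16 against control. That covariate with median-ratio scaling gave 1 member, 1 pathway gene and 379 genes in all and turned Igf1r to -0.17, Irs2 to -0.21 and Igfbp2 to -0.51 in PAN against control and turned Irs2 to 0.051 in pioglitazone against PAN. That setting further gave 0 genes in all and turned Irs1 to 0.092 and Igfbp3 to 0.51 in GQ-16 against PAN and gave 399 genes in all and turned Insr to -0.083, Igf1r to -0.17, Irs2 to -0.15 and Igfbp3 to -0.091 in pioglitazone against control. In addition it gave 83 genes in all in GQ-16 against control. Leaving out the libraries above 30% mitochondrial reads gave 0 members, 0 pathway genes and 56 genes in all and turned Igf1r to -0.21, Igf2r to -0.053 and Igfbp2 to -0.90 in PAN against control and gave 0 genes in all and turned Igf1r to 0.087, Igf2r to 0.017, Irs1 to 0.016 and Igfbp3 to 0.15 in GQ-16 against PAN. In addition it turned Igf1r to 0.17 and Igfbp5 to -0.0014 in GQ-16 against pioglitazone and gave 0 genes in all and turned Insr to -0.026, Igf1r to -0.29, Irs2 to -0.064 and Igfbp2 to -0.78 in pioglitazone against control. It also gave 0 genes in all in GQ-16 against control. Leaving them out with median-ratio scaling gave 0 members, 0 pathway genes and 57 genes in all and turned Igf1r to -0.31, Igf2r to -0.17 and Igfbp2 to -1.02 in PAN against control and gave 0 genes in all and turned Igf1r to 0.14, Igf2r to 0.069, Irs1 to 0.062 and Igfbp3 to 0.20 in GQ-16 against PAN. It also turned Igf1r to 0.14 and Igfbp5 to -0.032 in GQ-16 against pioglitazone and gave 0 genes in all and turned Insr to -0.055, Igf1r to -0.32, Irs2 to -0.094 and Igfbp2 to -0.81 in pioglitazone against control. This setting likewise gave 1 gene in all in GQ-16 against control. Counts with a rat left out ran from 838 to 4964 for all genes in PAN against control, from 3 to 19 for pathway genes in PAN against control, from 0 to 1 for all genes in pioglitazone against PAN, from 0 to 9 for all genes in GQ-16 against PAN, from 0 to 2 for members in pioglitazone against control, from 48 to 1660 for all genes in pioglitazone against control, from 0 to 3 for members in GQ-16 against control and from 0 to 1572 for all genes in GQ-16 against control. With a rat left out, the log2 changes that turned in PAN against control ranged over Igf2r -0.030 to 0.26 and Igfbp2 -0.0084 to 1.08. In pioglitazone against PAN those ranges were Irs1 -0.029 to 0.098, Igfbp5 -0.013 to 0.34, Insr -0.0035 to 0.30, Igf1r -0.20 to 0.073, Irs2 -0.35 to 0.048 and Igfbp2 -0.20 to 0.61. In GQ-16 against PAN those ranges were Igfbp3 -0.52 to 0.18, Igf2r -0.27 to 0.017, Irs1 -0.26 to 0.016, Igf1r -0.39 to 0.087 and Irs2 -0.16 to 0.43. In GQ-16 against pioglitazone those ranges were Igf1r -0.31 to 0.17, Igf2r -0.054 to 0.22, Igfbp5 -0.18 to 0.15 and Igfbp7 -0.11 to 0.20. In pioglitazone against control those ranges were Igf2r -0.24 to 0.050, Igf1r -0.085 to 0.29, Irs2 -0.012 to 0.39 and Insr -0.11 to 0.19. In GQ-16 against control those ranges were Igf1r -0.26 to 0.22 and Igf2r -0.14 to 0.14. The lowest count of a member in any library was 98 reads (Irs1).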
